A study of Mus musculus with 4 samples.

Results

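The genes described here are 6 partners of the tumour suppressor p53: its paralogues Trp63 and Trp73, its inhibitors Mdm2 and Mdm4, the phosphatase gene Ppm1d and the deubiquitinase gene Usp7. They were chosen by name from the 20749 gene names on the array, and all 6 had probes of their own. p53 is a transcription factor that answers DNA damage by stopping the cell cycle or starting apoptosis, and Mdm2 is the ubiquitin ligase that keeps its level low. Mdm4 binds the same part of p53 and blocks its activity, Ppm1d removes activating phosphates after damage, and Usp7 removes ubiquitin from both Mdm2 and p53. p63 and p73 share the DNA-binding fold of p53, and p63 is best known for its part in epithelial development. In tumours that keep p53, extra copies of MDM2, MDM4 or PPM1D are a known way of silencing it. Here p53 itself was removed.

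Copy number came from comparative genomic hybridisation on arrays, for 4 liver tumours of male C57BL/6J mice with liver-specific loss of Trp53, each from a separate, untreated animal. Tumour DNA was labelled with Cy5, and the Cy3 reference was spleen DNA pooled from 3 littermates, which the labels also give as Trp53-/- and male. The labelling protocol names liver as the reference instead. The sources used here give neither the Cre driver, the deleted exons, the animals' age nor the share of tumour cells. Every value is a log2 ratio of tumour over reference, so a value above 0 means more tumour DNA. A gene's region spans all probes that carry its name, widened by 50 kb to the left and right. Its value is the mean over the probes inside, and its surroundings are the probes within 1 Mb on either side. Positions are on mm9, and exons and introns are not given because no annotation of that build was used.

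The arrays differed in noise. The SD between neighbouring probes was 0.26, 0.32, 0.16 and 0.17 in tumours 1 to 4, and tumour 2 alone failed the scanner software's own limit on that spread. Tumours 1 and 4 shared a slide. All probes of the 6 regions were well above background and unsaturated on every array. The library of tumour 1 is labelled male, as is its reference. But the X chromosome of this tumour averaged 0.81 and its Y chromosome -3.03, so results are also given without it. In tumours 2 to 4 the X chromosome averaged 0.18, 0.037 and -0.050, and the Y chromosome -1.12, -0.53 and -0.43. The 6 genes are all autosomal. At the targeted gene, the 12 probes of the Trp53 region averaged 0.012 ± 0.078 (SD, n = 4), and the difference from its surroundings was -0.019 ± 0.056. The 2 named Trp53 probes alone averaged 0.52, 0.32, -0.16 and 0.29 in tumours 1 to 4, above 0 in all but tumour 3, with a mean of 0.24 ± 0.29 against -0.034 ± 0.061 for the flanking probes. With both channels labelled Trp53-/- and the deleted part not given, these probes do not check the genotype.

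With the settings used here for the main values, none of the 6 genes passed a test or lay in a called segment; Mdm2 and Usp7 passed against their surroundings under other settings, given further on. Over 24 gene-by-tumour values the region means ran from -0.061 to 0.14, and 0 of them reached 0.2 in size, a size reached by 21%, 20.2%, 3.47% and 1.63% of all genes in tumours 1 to 4. For orientation, 3 copies against 2 in every cell would give 0.58, and 1 copy against 2 would give -1. Changes held by fewer cells would move the ratio less. The SE over the probes of a region was 0.023 to 0.10. In tumour 1 all 6 genes lay above 0, with a median of 0.12 where the median of all genes was 0.031, and in tumour 3 only Trp63 and Ppm1d did.

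**Figure D1:**
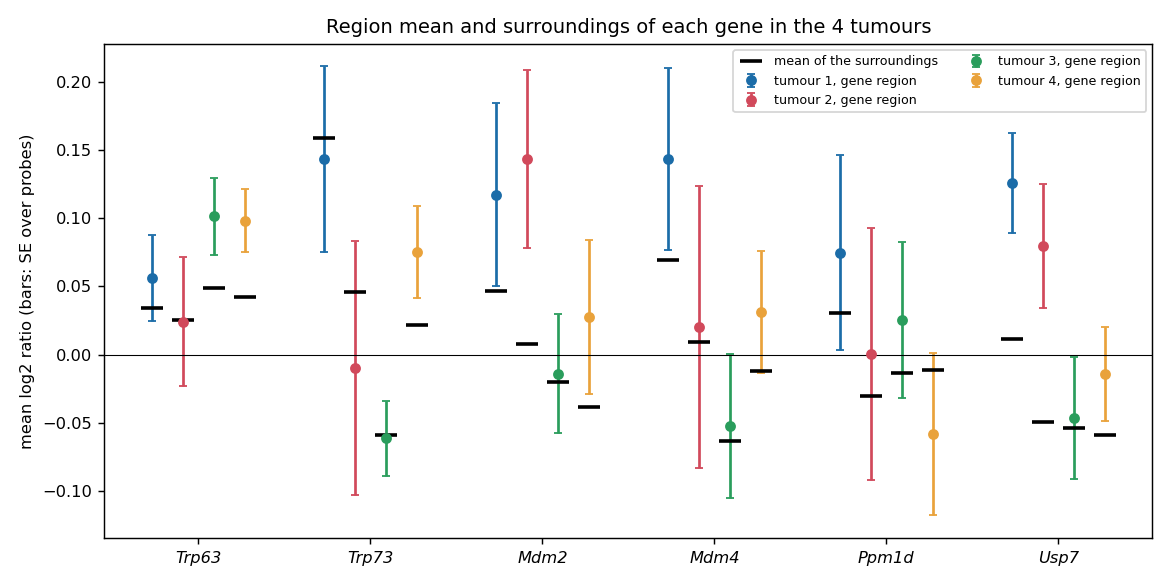
Mean log2 ratio of each gene region (vertical axis, points with SE over probes, 1 colour per tumour) and of its surroundings within 1 Mb on either side (black bars), for the 6 genes. All points lie between -0.061 and 0.14, and the regions differ from their surroundings by -0.056 (Trp73, tumour 2) to 0.14 (Mdm2, tumour 2).

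Trp63, the gene of p63, had the densest coverage, with 23 named probes from 25692321 to 25890953 on chromosome 16 and 28 probes in its region. The region means of tumours 1 to 4 were 0.056 ± 0.032, 0.024 ± 0.047, 0.10 ± 0.028 and 0.098 ± 0.023 (SE over probes). All 4 tumours lay above 0, with tumours 3 and 4 the highest; of all genes, 10.4% were above 0 in every tumour. The mean over tumours was 0.070 ± 0.037 (SD, n = 4; limma adjusted p = 0.26), with a 95% interval from -0.0048 to 0.14. The surroundings lay at 0.034, 0.026, 0.049 and 0.042, so the region exceeded them by 0.032 ± 0.027 (adjusted p = 0.32). The named probes alone averaged 0.050 ± 0.057 (SD, n = 4) and lay below 0 in tumour 2, at -0.024. The 5 flanking probes averaged 0.16 ± 0.059. Within the gene, single probes spread more widely than the tumours did. The interior named probes with the lowest and the highest mean over the tumours are printed here because they show how far probes of 1 gene differ on the same DNA:

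Trp63, 25811495 to 25811554, mean -0.14: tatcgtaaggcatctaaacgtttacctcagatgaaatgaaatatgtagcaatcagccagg
Trp63, 25882505 to 25882564, mean 0.30: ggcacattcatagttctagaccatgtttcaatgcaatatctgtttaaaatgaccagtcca

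The first had -0.079, -0.41, -0.074 and -0.0022 in tumours 1 to 4, and the other had 0.33, 0.54, 0.051 and 0.27. These probes have nearly the same GC content, 38.3% and 36.7%. Of the 23 probes, 4 were above 0 in every tumour and 3 below, and the lowest mean over 5 neighbouring probes was -0.20, in tumour 2.

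Trp73, the gene of p73, has 9 named probes from 153430872 to 153512802 on chromosome 4. Its region of 18 probes was at 0.14 ± 0.068, -0.010 ± 0.093, -0.061 ± 0.027 and 0.075 ± 0.034 in tumours 1 to 4. The tumours fell on both sides of 0, and both the region and its surroundings were highest in tumour 1 and lowest in tumour 3, the surroundings being at 0.16, 0.046, -0.059 and 0.022. The mean was 0.037 ± 0.091 (SD, n = 4; adjusted p = 0.62) and the difference from the surroundings -0.0052 ± 0.045 (adjusted p = 0.90). The named probes alone averaged -0.023 ± 0.087 (SD, n = 4), against 0.096 ± 0.096 for the 9 flanking probes. Named probes of this gene reached the widest range among the 6, from -0.40 to 0.33 in the mean over tumours. The interior probe with the highest mean is shown because tumour 3 opposed the rest there, with 0.54, 0.61, -0.13 and 0.29:

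Trp73, 153491599 to 153491658, mean 0.33: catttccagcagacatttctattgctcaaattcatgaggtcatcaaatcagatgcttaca

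Mdm2, the ubiquitin ligase gene, has only 2 named probes, between 117126240 and 117145626 on chromosome 10, and 12 in its region, which also holds probes named Cpm, Nup107, Slc35e3 and AK020379. The region was at 0.12 ± 0.067, 0.14 ± 0.065, -0.014 ± 0.044 and 0.027 ± 0.057 in tumours 1 to 4. Tumours 1 and 2 were the high ones, and tumour 3 lay just under 0. The mean was 0.068 ± 0.074 (SD, n = 4; adjusted p = 0.33). The 123 surrounding probes were at 0.046, 0.0079, -0.020 and -0.039, below the region in each tumour. This difference averaged 0.070 ± 0.053 (unadjusted p = 0.029, adjusted p = 0.11). The named probes alone did not share the direction: their mean was -0.095 ± 0.16, against 0.10 ± 0.10 for the 10 flanking probes. The named probe nearer the start of the gene is shown because it was below 0 in every tumour, at -0.26, -0.12, -0.094 and -0.28:

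Mdm2, 117145567 to 117145626, mean -0.19: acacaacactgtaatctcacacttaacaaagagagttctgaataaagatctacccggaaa

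Mdm4, whose product lacks strong ligase activity of its own and acts together with Mdm2, has 4 named probes from 134888882 to 134913941 on chromosome 1. Its region of 13 probes was at 0.14 ± 0.067, 0.020 ± 0.10, -0.052 ± 0.053 and 0.031 ± 0.045 in tumours 1 to 4. Tumour 1 was highest and tumour 3 lowest, as in the surroundings, which lay at 0.069, 0.0091, -0.063 and -0.012. The mean was 0.035 ± 0.081 (SD, n = 4; adjusted p = 0.61), and the region exceeded its surroundings by 0.035 ± 0.030 (adjusted p = 0.30). As for Mdm2, the named probes were lower than their flanks, with -0.098 ± 0.11 against 0.095 ± 0.11. The lowest interior probe is shown because it had the lowest value of any named Mdm4 probe in tumour 2, with -0.34, -0.68, -0.096 and -0.16 in tumours 1 to 4:

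Mdm4, 134898171 to 134898230, mean -0.32: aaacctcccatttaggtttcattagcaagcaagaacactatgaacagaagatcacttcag

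Ppm1d, the phosphatase gene, has 3 named probes from 85133317 to 85159433 on chromosome 11, 15.7 Mb from Trp53. Its 10 region probes averaged 0.075 ± 0.072, 0.00017 ± 0.092, 0.025 ± 0.057 and -0.058 ± 0.059, each within about 1 SE of 0. The mean of 0.010 ± 0.055 (SD, n = 4; adjusted p = 0.87) was the nearest to 0 of the 6. The difference from the surroundings was 0.044, 0.030, 0.039 and -0.047, with tumour 4 apart from the others, and averaged 0.017 ± 0.043 (adjusted p = 0.65). Here the named probes, at 0.11 ± 0.042, were higher than the flanking ones, at -0.034 ± 0.067. The middle probe is shown because it was the highest, with 0.34, 0.41, 0.0028 and 0.27:

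Ppm1d, 85144956 to 85145015, mean 0.25: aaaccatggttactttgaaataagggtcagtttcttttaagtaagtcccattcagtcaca

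Usp7, the deubiquitinase gene, has 4 named probes from 8694717 to 8734625 on chromosome 16, 17.0 Mb from Trp63. Its region of 13 probes was at 0.13 ± 0.037, 0.080 ± 0.046, -0.046 ± 0.045 and -0.014 ± 0.034 in tumours 1 to 4. Tumours 1 and 2 were above 0 and the others below. The mean was 0.036 ± 0.080 (SD, n = 4; adjusted p = 0.60). The surroundings, at 0.012, -0.049, -0.054 and -0.059, were lower than the region in each tumour. The difference of 0.074 ± 0.058 was the largest of the 6 (unadjusted p = 0.026, adjusted p = 0.11), and the named probes had 0.081 ± 0.071. On the same chromosome, Trp63 had its highest values in tumours 3 and 4 and Usp7 in tumours 1 and 2.

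**Figure D2:**
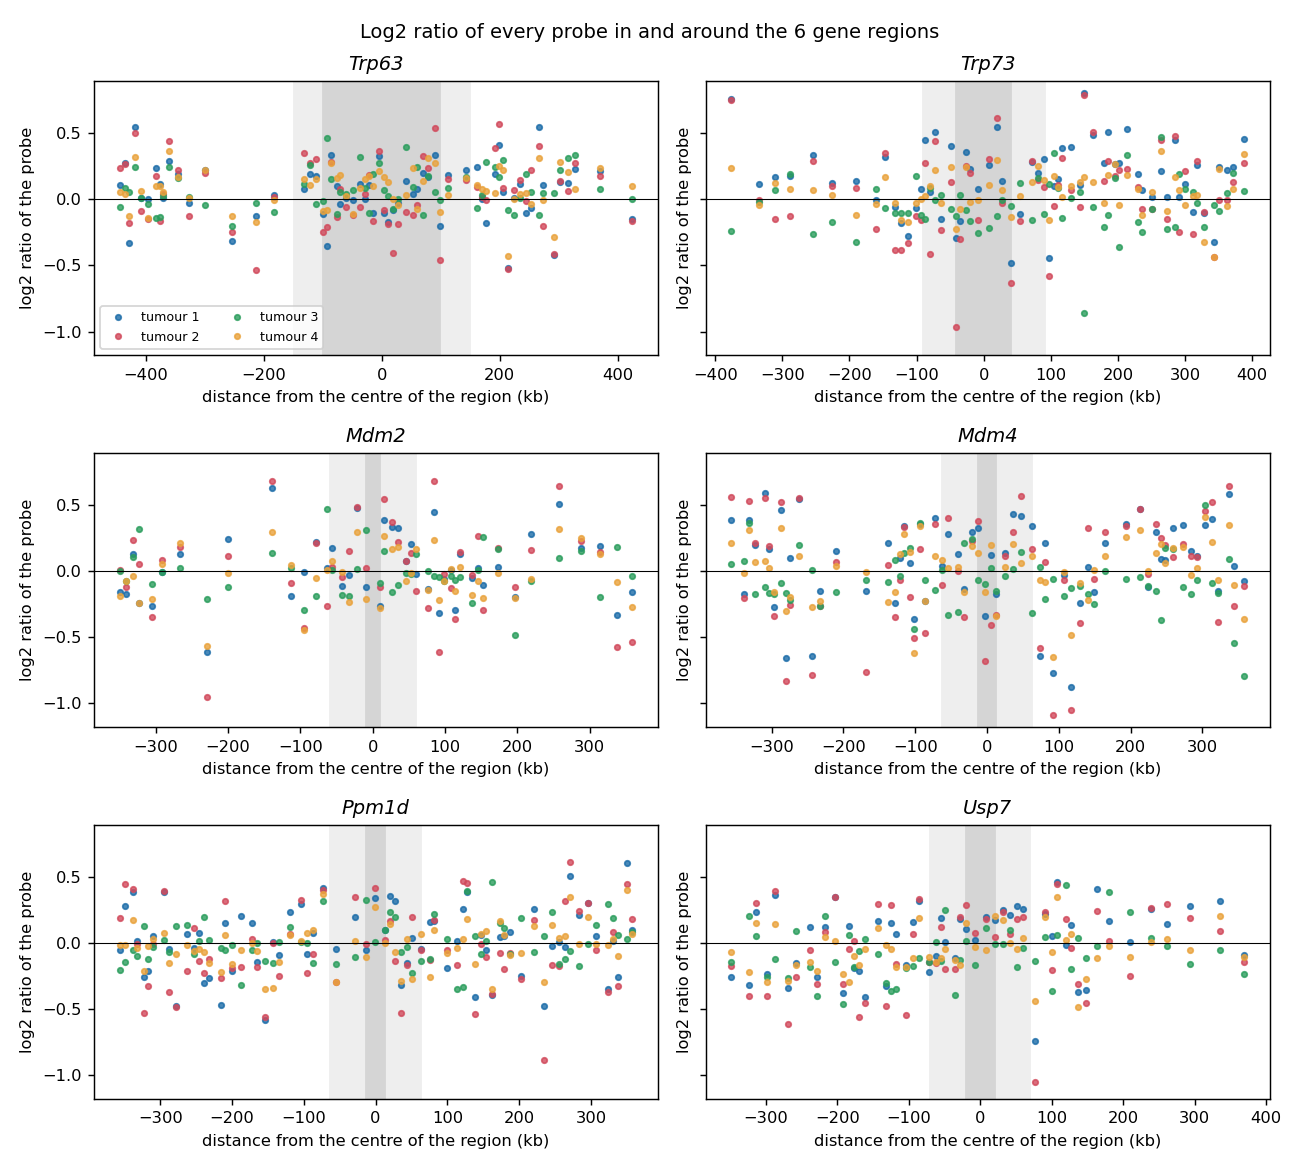
Log2 ratio of each probe (vertical axis) by distance from the centre of the region in kb, for the 6 genes and 300 kb to either side, with 1 colour per tumour. Dark shading marks the span of the named probes and light shading the 50 kb flanks; points scatter around 0 inside and outside the shading, and the lowest mean over 5 neighbouring probes in any region is -0.22.

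Across the 6 genes, limma called 0 of 6 against 0, where it called 0.0433% of 20795 gene items and 0.00481% as higher. None of the 6 had an unadjusted p under 0.05, against 20.5% of all items and 5.99% on the higher side. Against the surroundings it again called 0 of 6, where 7.87% of 20790 items passed and 3.38% passed as higher. The unadjusted p was under 0.05 for 2 of 6, Mdm2 and Usp7, both as higher, against 33.1% of all items in either direction and 16.3% as higher. All 6 means were above 0 and 5 were above their surroundings, compared with 47.6% and 50.7% of all items. The median item was at -0.0048 against 0 and at 0.0012 against its surroundings. Mdm2, Mdm4 and Usp7 were above their surroundings in every tumour, as were 18.2% of all items. The smallest p that an exact sign-flip test over 4 tumours can give is 0.125, and these 3 genes reached it, as Trp63 did against 0.

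In order of their means the genes ran Trp63, Mdm2, Trp73, Usp7, Mdm4 and Ppm1d, and neighbours in this order differed by less than the SD over tumours of either. The 95% intervals of the mean reached no higher than 0.16 (Mdm2) and no lower than -0.072 (Ppm1d). Against the surroundings the outer bounds were 0.14 (Usp7) and -0.062 (Trp73). These intervals rest on 4 tumours and leave out the spread of the single reference pool.

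**Figure D3:**
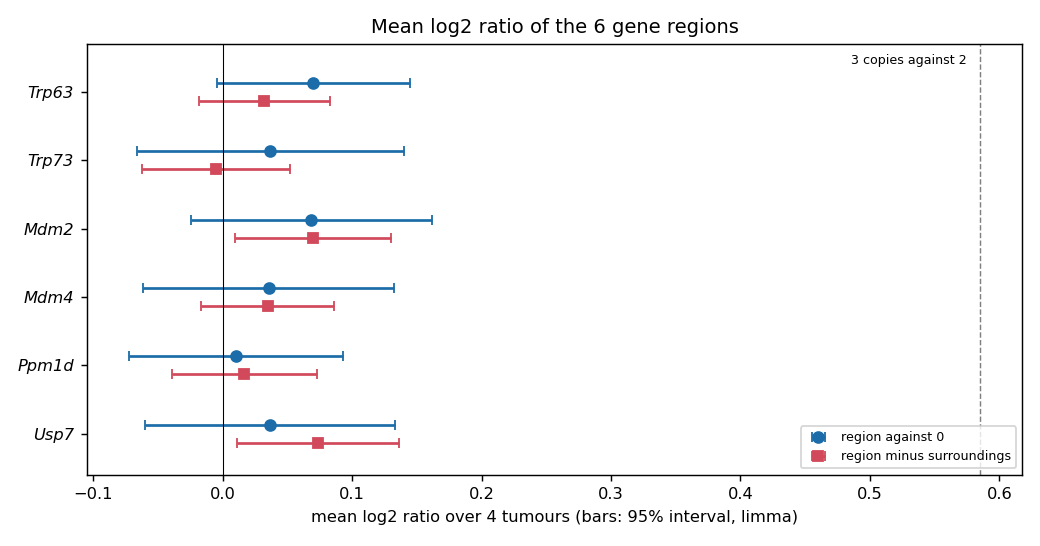
Mean log2 ratio over 4 tumours (horizontal axis) with the 95% limma interval, for each region against 0 (blue circles) and against its surroundings (red squares). The dashed line marks 0.58, the ratio of 3 copies to 2; the highest upper bound is 0.16.

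For the near-threshold differences of Mdm2 and Usp7, passing the test depended on the arrays and settings used. Both differences were above 0 in every tumour, so leaving out 1 tumour at a time could not change their sign. With 1 tumour left out, the mean differences ran from 0.048 to 0.091 for Mdm2 and from 0.055 to 0.096 for Usp7. Without tumour 3 the difference from the surroundings was 0.091 for Mdm2 (adjusted p = 0.017) and 0.096 for Usp7 (adjusted p = 0.015), but that fit called 38.8% of all items, and 20.3% of all as higher. With normexp background correction Usp7 passed at 0.11 (adjusted p = 0.025), beside 26.4% of all items and 12.5% as higher. Over all alternatives the adjusted p ran from 0.017 to 0.53 for Mdm2 and from 0.015 to 0.38 for Usp7. Without flanks the Mdm2 difference had the opposite sign, at -0.10. Without tumour 1 the means against 0 were 0.074 for Trp63, 0.052 for Mdm2, 0.0064 for Usp7, 0.0012 for Trp73, -0.00050 for Mdm4 and -0.011 for Ppm1d. Trp63 and Mdm2 thus kept the highest means, and the other 4 lay close to 0. The differences from the surroundings were then 0.069 for Mdm2, 0.060 for Usp7, 0.036 for Trp63, 0.022 for Mdm4, 0.0074 for Ppm1d and -0.0018 for Trp73, none past the test.

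In each tumour every region lay inside 1 segment without a break, and 0 of 24 were called gained or lost. Among all genes, 16.5%, 7.55%, 0.375% and 0.173% had most of their region in a called segment in tumours 1 to 4. The segment over Trp63 held 417 probes at 0.041 in tumour 3 and 517 probes at 0.035 in tumour 4, many more than the 28 of its region. Around Trp73 it was 262 probes at -0.064 in tumour 3 and 2531 probes at 0.097 in tumour 1. A change limited to 1 region had to reach a certain mean before the penalty allowed a segment. This bound ran from 0.25 for Trp63 in tumour 3 to 0.85 for Ppm1d in tumour 2. It was above 0.58 in tumours 1 and 2 for Mdm2 (0.64 and 0.78), Mdm4 (0.62 and 0.76), Ppm1d (0.70 and 0.85) and Usp7 (0.60 and 0.73), and in tumour 2 also for Trp73 (0.64). There, a gain of 1 copy in every cell, confined to the region, could go uncalled as a segment. Smaller gains could be missed more widely. The Ep300 region, inside a called gain, lay at 0.30 and 0.28 in tumours 1 and 2. In these tumours the bound was above those values for every gene described here, the lowest being Trp63 (0.41 and 0.50). A gain of the Ep300 size confined to any of these regions could thus go uncalled in tumours 1 and 2.

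Runs of 5 neighbouring probes were also followed through the regions. The lowest mean of such a run was -0.050 (Trp63) in tumour 1, -0.22 (Trp73) in tumour 2, -0.17 (Trp73) in tumour 3 and -0.12 (Usp7) in tumour 4. Among all autosomal runs, 39.8%, 13.9%, 5.75% and 13.1% were lower still. The highest were 0.29 (Trp73), 0.27 (Mdm2), 0.17 (Ppm1d) and 0.18 (Trp63), with 3.39%, 5.69%, 3.60% and 1.13% of runs higher. No run was near -1, the ratio of 1 copy lost in every cell, but a change held by fewer cells would be smaller. Regions inside called segments lay at -0.46 (Atm, tumour 1) and at 0.30 and 0.28 (Ep300, tumours 1 and 2). The highest runs of tumours 1 and 2, 0.29 and 0.27, were of about the size of that gain.

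The deviations of single probes repeated between arrays. Over the 45 named probes of the 6 genes, Pearson's r was 0.84 between tumours 1 and 2, 0.72 between tumours 1 and 4 and 0.65 between tumours 2 and 4. Tumour 3 had -0.071, 0.057 and 0.036 with tumours 1, 2 and 4. Over 161427 autosomal probes the same pairs gave 0.84, 0.69 and 0.69, and tumour 3 gave 0.094, 0.19 and 0.32. These are descriptions across probes, which share the probe sequence and the reference pool. Of the 45 probes 6 were above 0 in all tumours and 8 below, 31.1% with 1 sign, against 35.2% of all probes. The correlation of the ratio with probe GC content was 0.22, 0.13, -0.049 and 0.13 in tumours 1 to 4; the regions of the 6 genes had a mean GC of 36.2% to 37.5%, near the 36.7% of the median probe.

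**Figure D4:**
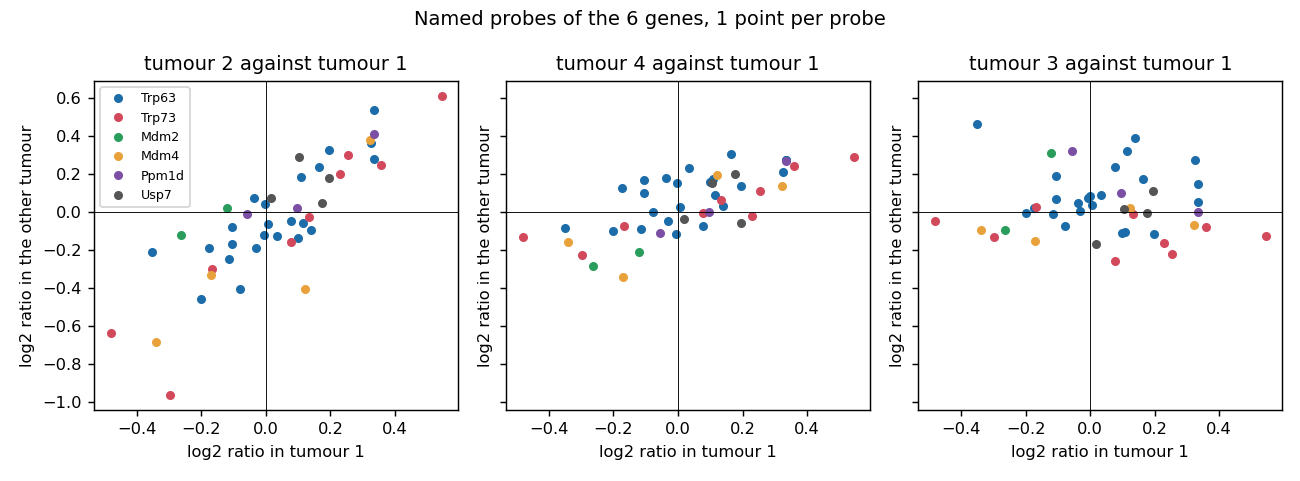
Log2 ratio of each of the 45 named probes in tumour 1 (horizontal axis) against tumours 2, 4 and 3 (vertical axis), with 1 colour per gene. Points rise together in the first 2 panels (r = 0.84 and 0.72) and show no trend in the panel of tumour 3 (r = -0.071).

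The wider pathway was read from 6 lists of 62 genes, of which 55 had probes under the names accepted. Against 0, 0 of 55 passed, 11 had an unadjusted p under 0.05 (20.5% of all items did), and 27 means were above and 28 below 0, with a median of -0.0063. Against the surroundings 0 were called higher and 2 lower, 3.38% and 4.49% of all items being called so, and the median was -0.0097. The unadjusted p was under 0.05 there for 12 of 55, where it was for 33.1% of all items. Among 8 upstream kinases, which phosphorylate p53 or its regulators, Atm, Atr and Chek1 lay inside called losses of chromosome 9 in tumour 1. Of all genes, 16.5% had most of their region in a called segment, gained or lost, in that tumour. These 3 kinases were not called in tumours 2 to 4. Atm was at -0.46, -0.28, -0.068 and -0.054 in tumours 1 to 4, Atr at -0.47, -0.29, -0.10 and -0.014, and Chek1 at -0.35, -0.26, -0.15 and -0.082. None of these 3 differed from its surroundings by the test (adjusted p = 0.44, 0.29 and 0.21). The highest kinase was Dyrk2, at 0.12 ± 0.11 (SD, n = 4; adjusted p = 0.24).

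Of 8 other ubiquitin enzymes that act on p53 or its regulators, Usp2 on chromosome 9 was lowest (-0.17 ± 0.13), called lost in tumour 1. The X-linked ligase gene Huwe1 was highest (0.20 ± 0.36), called gained in tumour 1. That rank rests on tumour 1, where Huwe1 was at 0.73 and the whole X chromosome at 0.81; in tumours 2 to 4 it was at 0.13, -0.065 and -0.0027, and its difference from its surroundings was -0.039. The highest autosomal gene of the list was Usp10, at 0.062. The 5 measured genes listed as Mdm2 antagonists, Daxx among them, ran from Rpl5 (-0.11 ± 0.098) to Rpl11 (0.060 ± 0.11). Rpl5 and Rpl11 are genes of ribosomal proteins that bind Mdm2. Among 12 cofactors and modifiers, the acetyltransferase gene Ep300 on chromosome 15 was called gained in tumours 1 and 2, at 0.30 and 0.28, and Ppp1r13b on chromosome 12 was called lost in tumour 2, at -0.16. Sirt1, the gene of a deacetylase of p53, was lower than its surroundings by -0.17 ± 0.027 (SE; adjusted p = 0.024), below 0 in 4 of 4 tumours. Its lowest probe was one of its 2 named ones. Sirt1 did not pass by the median over probes (-0.12, adjusted p = 0.070) or with its named probes alone (-0.34, adjusted p = 0.073). Nor did it without tumour 1, 2 or 4 (adjusted p = 0.10, 0.14 and 0.17). It passed with the GC correction (-0.17, adjusted p = 0.021), normexp (-0.19, adjusted p = 0.0047) and without tumour 3 (adjusted p = 0.0011). Normexp called 26.4% of all items, and the fit without tumour 3 called 38.8%.

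The 11 measured targets for arrest and repair ran from Cdkn1a to Xpc (0.12 ± 0.20), a gene of DNA damage recognition, and Rrm2b on chromosome 15, a subunit gene of ribonucleotide reductase, was called gained in tumours 1 and 2. Cdkn1a encodes p21, the cell cycle inhibitor by which p53 imposes arrest. Its region on chromosome 17 was at -0.12, -0.27, -0.43 and -0.25 in tumours 1 to 4, lower than its surroundings by -0.28 ± 0.025 (SE; adjusted p = 0.0033). Most of that value comes from 1 of its 9 probes, 43.3 kb from the only probe named Cdkn1a, and the other 8 averaged -0.11. The call held without each tumour in turn (highest adjusted p = 0.039), but not with the probe named Cdkn1a alone (-0.23, adjusted p = 0.74). By the median over probes the difference was -0.098 (adjusted p = 0.12). A fit without the lowest probe was not run. That probe is shown because it had the lowest mean of the 9, with -1.56, -1.54, -1.14 and -1.79 in tumours 1 to 4:

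Probe in the Cdkn1a flank, chromosome 17, 29191745 to 29191804: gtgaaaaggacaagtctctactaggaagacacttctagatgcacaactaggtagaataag

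The 11 measured apoptosis targets had a median of -0.059, with 3 means above and 8 below 0, while the arrest and repair targets had 8 above and 3 below, with a median of 0.023; of all items, 47.6% were above 0. They ran from Perp (-0.091 ± 0.048), a membrane protein gene, to the X-linked receptor gene Eda2r (0.25 ± 0.38), called gained in tumour 1. Eda2r was at 0.79 in that tumour, near the 0.81 of its whole X chromosome, at 0.17, 0.11 and -0.070 in the others, and differed from its surroundings by 0.0045. The highest autosomal gene of the list was Fas, a death receptor gene, at 0.046. None of them passed either test, and an unadjusted p was under 0.05 for 1 of 11 against 0 and 3 of 11 against the surroundings, beside 20.5% and 33.1% of all items.

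**Figure D5:**
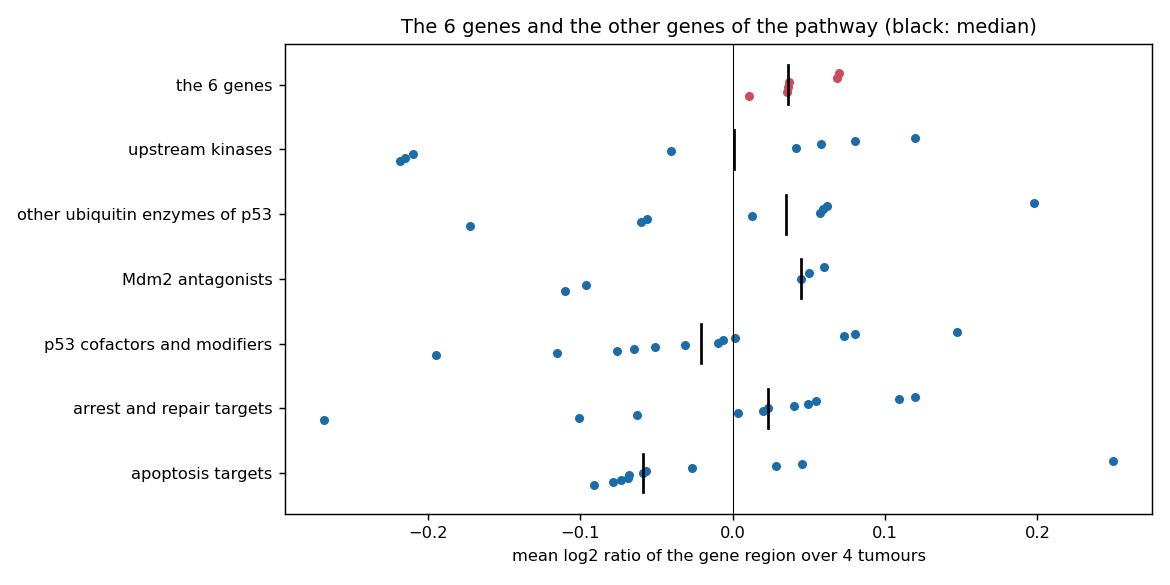
Mean log2 ratio over 4 tumours (horizontal axis) of the 6 genes (red) and of each gene in the 6 pathway lists (blue), with the median of each row in black. The 6 genes lie between 0.010 and 0.070. Trp63 and Mdm2 lie above the highest Mdm2 antagonist (0.060), autosomal ubiquitin enzyme (0.062) and autosomal apoptosis target (0.046). They lie below the highest kinase (Dyrk2, 0.12), cofactor or modifier (Ep300, 0.15) and arrest or repair target (Xpc, 0.12). The points at 0.20 and 0.25 are the X-linked Huwe1 and Eda2r, both highest in tumour 1, and the lowest point is Cdkn1a at -0.27.

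The gene on another chromosome with the most similar 4 values was sought for each of the 6 by Euclidean distance over the tumours, among regions of at least 10 probes. It was AK137237 on chromosome 7 for Trp63 (distance 0.015), Nsf on chromosome 11 for Trp73 (0.014), Muc13 on chromosome 16 for Mdm2 (0.014), Myst1 on chromosome 7 for Mdm4 (0.013), Tmem87b on chromosome 2 for Ppm1d (0.021) and Scarb1 on chromosome 5 for Usp7 (0.013). Regions within a distance of 0.05 were most frequent for Mdm4, with 195 of 13672 (1.43%). They were rarest for Trp63, with 13 of 14109 (0.092%).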

How the data were processed

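Arrays were extracted with Agilent Feature Extraction 10.7.3.1, per the submitters' processing notes. Per the file headers, each log10 ratio sets red (tumour) over green on mm9, from signals already background-subtracted, detrended and linearly dye-scaled by the authors. Raw and processed intensity columns of both dyes were deposited too. The deposited value table held the same log10 ratios within 0.5% at all 180880 features.

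Ratios were turned to log2, outlier and control spots were left out (93 to 126 outliers per array), repeat spots became 1 mean per probe, and the autosomal median of every array was set to 0 (170305 probes). Region means, and their differences from at least 20 surrounding probes, were tested against 0 with limma 3.58.1 (R 4.3.3, Benjamini-Hochberg under 0.05 over all items, moderated intercept), since the reference shares each array. Segments came from exact penalised least squares (penalty 4 times log n times noise variance; at least 5 probes; calls at 0.2). All 4 tumours formed 1 group, numbered in accession order. The scripts were tested on simulated data with noise drawn independently for each probe and array. That noise lacked the probe deviations that repeated between the real arrays, so the simulation does not measure their effect on the tests. The number of arrays limits the precision.

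Members and lists were chosen with earlier results of these data known. Named were the 6 genes, Trp53, list genes called by a test or segment, the ends of each list, and nearest genes; the probes printed were picked by their values. Other settings tried were normexp (offset 50), mode centring, the value table, dim probes, GC lowess, other flanks and windows, medians, thresholds, penalties, tumours left out and, added after seeing the data, slide means.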

Additional observations from a re-analysis of the deposited data

Results flagged for a closer look

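At Ppm1d the difference between the region and its surroundings was -0.047 in tumour 4, apart from the other 3 tumours, which lay between 0.030 and 0.044; the gap was 0.85 of the whole range. It was the only value marked among 30 sets of 4 checked, and chance marks about 1 set in 20. The region of tumour 4 had an SE over its 10 probes of 0.059.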

How the results depend on the processing

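Against 0, no alternative called any of the 6 genes, and none of those run on the lists (normexp, the GC correction and each tumour left out) called a listed gene. Against the surroundings, the number of the 6 called was 1 with normexp and 0 to 2 with a tumour left out, and the number of listed genes called, 2 as reported, was 14 with normexp and 1 to 19 with a tumour left out, highest without tumour 3; of all items, 26.4% were called with normexp and 38.8% without tumour 3. Segment calls stayed at 0 with thresholds of 0.1 and 0.3 and penalties of 2 and 8. Mdm2 passed against its surroundings without tumour 3, at 0.091 (limma adjusted p = 0.017). Several means, that of Mdm2 among them, changed sign under other settings, and no value of the changed sign passed the test. Against 0 these were, without flanks, Trp73 (-0.023), Mdm2 (-0.095) and Mdm4 (-0.098); with flanks of 100 kb, Mdm4 (-0.035) and Usp7 (-0.0018); with mode centring, Ppm1d (-0.012); and without tumour 1, Mdm4 (-0.00050) and Ppm1d (-0.011). Against the surroundings they were Mdm2 (-0.10) and Mdm4 (-0.097) without flanks, Mdm4 (-0.037) with 100 kb, Ppm1d (-0.00094) with normexp, and Trp73 with normexp (0.038), medians (0.043), a 2 Mb window (0.015) and without tumour 2 (0.012). With each tumour left out, Mdm4 ran from -0.00050 to 0.065 and Ppm1d from -0.011 to 0.033 against 0, and Trp73 from -0.025 to 0.012 against its surroundings. The sign of Trp63 held under every alternative, from 0.047 to 0.11 against 0 and from 0.0049 to 0.052 against its surroundings. Against 0, leaving out a tumour could not change that sign, as Trp63 lay above 0 in all 4 tumours. A random slide effect could not be fitted, because the 4 arrays lie on 3 slides; averaging by slide called 0 of 6 in both comparisons. No paired analysis was possible because there is 1 group and the labels give no replicate numbers. All region probes of the 6 genes were well above background, and the noise between neighbouring probes was highest in tumour 2.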
